A study of Arabidopsis thaliana with 6 samples.

Results

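The CBP, TAF1 and GNAT histone acetyltransferase genes of Arabidopsis thaliana were examined in seedling RNA-seq. The set held 10 genes of the 32548 listed in each deposited table. It was chosen by locus and covers 5 CBP-type genes (HAC1, HAC2, HAC4, HAC5 and HAC12), 2 TAF1-type genes (HAF1 and HAF2) and 3 GNAT-type genes (HAG1, HAG2 and HAG3). The family was picked with the rise of HAC2 in the libraries labelled epl1a/b already known. The genotype values of HAC2 are therefore given as a description, without a test.

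The study asked what the NuA4 histone acetyltransferase complex contributes to chlorophyll synthesis and photosynthesis, and it compared seedlings of the Col-0 wild type with a line whose genotype label is epl1a/b(-/-). EPL1A and EPL1B are the plant relatives of Enhancer of polycomb, a NuA4 subunit; the labels do not describe the alleles. There were 2 libraries of wild type and 2 of epl1a/b, and a separate pair of Col-0 libraries came from plates wrapped in foil (dark) and plates left in the light, 1 library each. All seedlings were 2 weeks old, from plates held at 23 °C under a daily cycle of 16 h light and 8 h dark.

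Histone acetyltransferases transfer an acetyl group from acetyl-CoA to lysines in the histone tails, a mark that goes with open chromatin and active transcription. CBP-type enzymes are large coactivators recruited by transcription factors, TAF1-type proteins are the largest subunits of the general transcription factor TFIID, and GNAT-type enzymes work in separate complexes. The catalytic subunits of NuA4 belong to another class, the MYST type, which in Arabidopsis is formed by HAM1 and HAM2.

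Sequence is shown for the genes whose transcripts differed most between the genotypes: HAC2, HAF2 and HAC4. Each stretch runs from 250 bases before the annotated gene start to 50 bases after it, 5′ to 3′ on the gene's strand, from the RefSeq genome TAIR10.1 (HAC2 chr1:25145337-25145636, plus strand; HAF2 chr3:6575564-6575863, minus strand; HAC4 chr1:20938303-20938602, minus strand). Capitals mark the start codon in HAC2 and a TATAAA match in HAC4, and HAF2 has no capitals.
HAC2: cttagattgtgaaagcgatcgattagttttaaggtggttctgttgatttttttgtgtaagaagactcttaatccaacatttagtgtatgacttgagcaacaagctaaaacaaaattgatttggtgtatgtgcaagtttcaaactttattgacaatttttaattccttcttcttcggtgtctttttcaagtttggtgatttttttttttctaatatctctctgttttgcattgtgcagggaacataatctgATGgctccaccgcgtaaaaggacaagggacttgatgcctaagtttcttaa
HAF2: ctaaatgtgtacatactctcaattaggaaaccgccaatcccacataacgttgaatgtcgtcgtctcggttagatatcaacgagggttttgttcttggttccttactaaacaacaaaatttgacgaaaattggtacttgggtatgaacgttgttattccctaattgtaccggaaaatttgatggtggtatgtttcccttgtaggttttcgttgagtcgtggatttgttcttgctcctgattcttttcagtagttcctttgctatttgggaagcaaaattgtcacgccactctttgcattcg
HAC4: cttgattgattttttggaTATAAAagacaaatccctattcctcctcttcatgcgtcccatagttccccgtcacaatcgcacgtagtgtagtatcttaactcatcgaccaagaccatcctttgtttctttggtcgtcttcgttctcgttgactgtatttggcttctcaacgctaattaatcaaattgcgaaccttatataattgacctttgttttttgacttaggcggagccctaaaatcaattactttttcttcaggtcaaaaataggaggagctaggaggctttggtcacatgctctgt
RefSeq marks all 3 gene models as partial. That of HAC2 begins at the start codon itself, so its transcription start lies at an unknown distance upstream. The last 187 bases of a long non-coding RNA gene, AT1G08913, on the same strand, fall inside the HAC2 window. GC content was 34.0% in the HAC2 window, 39.7% in that of HAF2 and 40.0% in that of HAC4, against a median of 32.0% over 27443 promoters of the same length. Motifs were searched on both strands, and no gene of the set held more than 1 of the 6 kinds, so no matches of different kinds overlapped. The TATA box TATAAA, present in 52.15% of all promoters, occurred in HAC4, HAF1 and HAG1. The site II element TGGGCC (15.46% of promoters) occurred in HAG2, the repeat GAGAGAGA (8.38%) in HAC5, and the heat shock element GAANNTTC (11.58%) in HAG3. The G-box CACGTG (7.68%) and the telo box AAACCCTA (6.22%) occurred in none of the 10, and the HAC2 and HAF2 windows held none of the 6 motifs.

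HAC2 also carries a tandem repeat in its first exon, which matters for how uniquely its reads can be placed. The repeat lies at chr1:25146010-25146762 and holds 3.98 copies of a 189-base unit, with 98.4% identity between a base and the base 1 unit further on. The first copy reads as follows, from chr1:25146010-25146198 on the plus strand.
HAC2 repeat unit: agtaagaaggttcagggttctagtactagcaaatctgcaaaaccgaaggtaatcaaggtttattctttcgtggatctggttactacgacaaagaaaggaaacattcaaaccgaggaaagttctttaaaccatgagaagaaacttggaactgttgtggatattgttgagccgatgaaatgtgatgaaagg
Because of it, 495 of 3771 50-base words of the HAC2 exons (13.1%) occur more than once. All of those copies lie within HAC2, and 0 words of any of the 10 genes occurred in another gene of the set or elsewhere in the nuclear chromosomes. Only exact matches were counted, and the plastid and mitochondrial genomes were not searched. 

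The 4 genotype libraries held between 18796289 and 19088784 reads as recovered from the deposited normalised counts, and the dark and light libraries held 18798088 and 27831231 counts. Both epl1a/b titles start with the name of a histone mark, H4K5Ac, while the other labels of these libraries describe RNA, and they were used as RNA-seq. EPL1A had normalised counts of 282 and 225 in wild type and 93.8 and 79.2 in the libraries labelled epl1a/b. EPL1B had 335 and 351 in wild type and 4656 and 4399 in the libraries labelled epl1a/b. EPL1B was thus 13.2-fold higher although the line is labelled as mutant for it, while EPL1A was lower. Counts per gene do not show which part of a transcript was read, and the labels do not describe the alleles. Whether the mutant label holds was therefore not tested. Summed normalised counts of leaf markers were 307970 and 314370 in the libraries labelled epl1a/b against 683820 and 746810 in wild type, with 5 of 5 lower. Root markers summed to 85381 and 93913 against 40717 and 48849, with 2 of 7 higher and 2 lower. Their median log2 change was -0.60, against 0.02 for all genes tested, so the sum and the median point in opposite directions. Seed and embryo markers summed to 48.9 and 74.2 against 6.24 and 7.38, with 3 of 9 tested, 2 of them higher, and CRC, SESA2, SESA3 and SESA5 at 0 in all 4 libraries. Dividing-cell markers summed to 1524 and 1557 against 1407 and 1509, with 1 of 4 higher and 1 lower. Over all genes tested, 22.5% were called higher and 24.1% lower. The part of tissue make-up in the differences below was not tested. In RNA from whole seedlings, fewer cells of a type and less RNA per cell cannot be told apart.

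In wild type seedlings HAC1 was the most abundant of the family and HAC2 was not detected. Levels of different genes are compared here as normalised counts per kb of exon. HAC1 reached 336 per kb (mean of 2 libraries), followed by HAG2 with 273, HAF1 with 220 and HAG3 with 192. HAG1 with 148 and HAC12 with 142 overlapped between libraries and could not be ordered, while every other neighbouring pair in the order was separated. HAC5 stood at 123 per kb, HAC4 at 95.4 and HAF2 at only 2.06. The TAF1 pair was thus very uneven, and HAF1 supplied nearly all of its transcripts.

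In the libraries labelled epl1a/b the same scale put HAG2 first with 311 per kb and HAC1 next with 305, a pair whose libraries overlapped. HAF1 with 229 and HAG3 with 225 also overlapped, as did HAC12 with 128 and HAC5 with 127. HAC4 stood at 61.7, HAC2 at 22.1 and HAF2 at 6.09, so HAC2 was the more abundant of the latter pair. The summed level of all 10 genes was 1534 and 1530 per kb in wild type and 1553 and 1601 in epl1a/b. HAC2 made up 1.44% and 1.36% of that sum in epl1a/b, and HAC1 went from 21.6% and 22.3% in wild type to 19.6% and 19.2%.

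**Figure D1:**
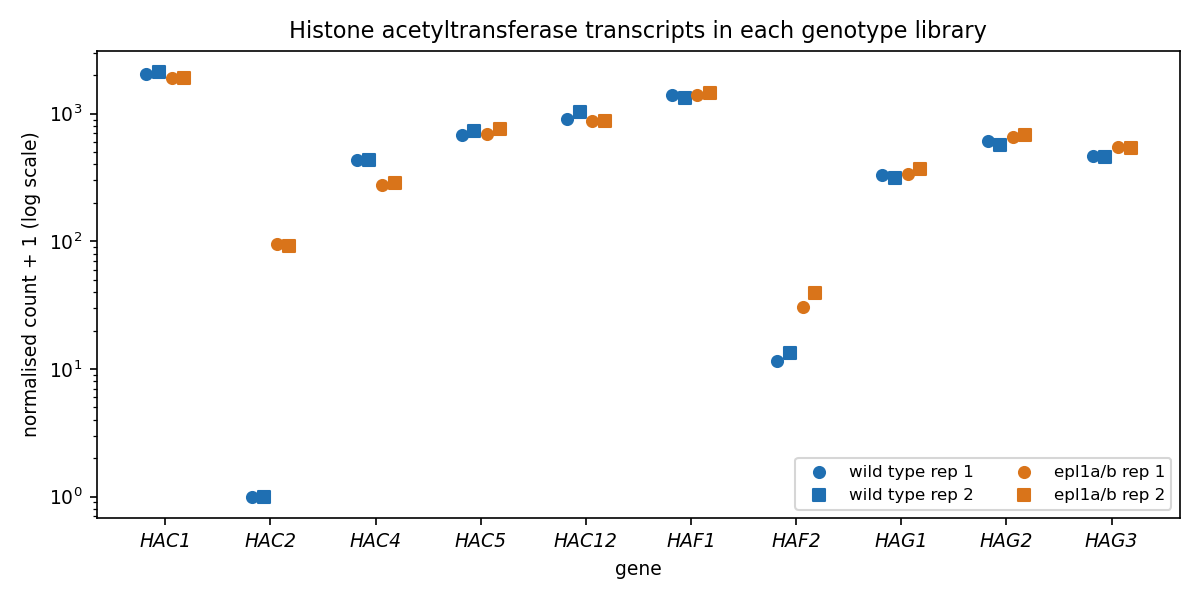
Normalised count plus 1, on a log scale, of each of the 10 genes in the 4 genotype libraries, with each point 1 library (blue, wild type; orange, epl1a/b; circles and squares, replicates 1 and 2). HAC2 lies at the floor in both wild type libraries and at 94.4 and 91.7 in epl1a/b, while most other genes differ little.

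The genotype comparison asked whether transcripts of the other acetyltransferase classes differed in the line labelled as mutant for a pair of NuA4 subunits. HAC2 appeared in the libraries labelled epl1a/b, HAF2 rose 2.79-fold from a very low level, HAG3 rose 1.17-fold and HAC4 fell to 0.648 of its wild type level. These folds are of value + 1, which understates the rise of HAF2. The other 6 genes did not pass the test. Over all 23658 genes tested, limma called 22.5% higher and 24.1% lower (46.7% in either direction) at an adjusted p under 0.05, so that 48.3% of called genes were higher, against 70.5% with equal library totals, and nothing is read from the family's count against these shares because it was chosen with HAC2 known. The median log2 change of the 9 genes other than HAC2 was 0.06, and that of all genes tested was 0.02. The labels do not say whether replicate libraries were grown separately, and each p-value therefore reflects the spread of these libraries alone, which may be technical.

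HAC2 (AT1G67220, chr1:25145587-25150558, plus strand, 9 exons), a CBP-type gene, had 0 reads in wild type replicate 1 and 0 in replicate 2. It had 108 reads in epl1a/b replicate 1 and 105 in replicate 2, or normalised counts of 94.4 and 91.7. Both libraries labelled epl1a/b were high and close to each other, and the groups did not overlap. Against a floor of 3 counts per wild type library, which corresponds to a mean normalised count of 3.14, HAC2 was at least 29.6-fold higher. The gene passed the filter on low values only through the epl1a/b libraries. Under dark it had 0 counts and under light 3, both at or under that floor, so no ratio is given. Of the Col-0 libraries, the light library was the only one of the 4 with a HAC2 read.

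HAC2 was 1 of 8398 genes with 0 reads in both wild type libraries. Of those, 1615 had at least 1 read in epl1a/b and 265 passed the filter, and HAC2 ranked 3 by its mean level there. Such genes can pass only through the epl1a/b libraries, and the family was picked with the rise of HAC2 known. The rank is therefore a description only. The genes nearest to it in level over the 4 libraries, by Euclidean distance on log2(value + 1), were a defensin-like gene (AT5G33355), NAC085 and an Spt6-like elongation factor gene (AT1G63210). AT5G33355 had normalised counts of 146 and 155 in epl1a/b, at a distance of 0.97. NAC085, a NAC-domain transcription factor gene, had 42.3 and 64.4 (distance 1.25), and AT1G63210 had 63.4 and 41.4 (distance 1.26). These genes lie on chromosomes 5, 5 and 1. In the other Col-0 libraries their patterns parted: AT5G33355 had 52 counts in the dark and 223 in the light, NAC085 had 1 and 9, and AT1G63210 had 8 and 4.

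HAC4 (AT1G55970, chr1:20932451-20938352, minus strand), another CBP-type gene, was the only gene of the 10 that fell. Its normalised counts were 432 and 432 in wild type and 275 and 283 in epl1a/b. Both libraries labelled epl1a/b were below both wild type libraries, with a gap far wider than the spread within either group. The log2 change was -0.63 ± 0.09 (SE; 95% interval -0.84 to -0.42; limma adjusted p = 0.00104). edgeR on the recovered reads gave an adjusted p of 0.00154, and the call held under each alternative that was run. HAC4 still fell when the libraries were scaled to equal totals, with a log2 change of -0.39 (limma adjusted p = 0.00858). As a share of the family's summed level per kb, HAC4 took 6.22% and 6.23% in wild type and 3.91% in each epl1a/b library. In the separate Col-0 libraries it took 2.71% in the dark and 3.58% in the light, below both epl1a/b libraries. Col-0 libraries of the 2 tables thus differed in this share by more than the genotypes did, and the cause was not tested.

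HAC1 (AT1G79000, chr1:29716350-29724748, minus strand) encodes the best-studied CBP-type coactivator of the plant, which acts with HAC5 and NPR1 in salicylic acid responses and is recruited through MED25 in jasmonate responses. Its normalised counts were 2056 and 2121 in wild type and 1888 and 1908 in epl1a/b. The libraries labelled epl1a/b lay below the wild type libraries without overlap, but the log2 change of -0.14 ± 0.07 (SE; 95% interval -0.30 to 0.02) did not pass (limma adjusted p = 0.131). HAC12 (AT1G16710, chr1:5713794-5722614, plus strand), the closest relative of HAC1, had 912 and 1026 in wild type and 872 and 873 in epl1a/b. Its log2 change was -0.15 ± 0.08 (SE; 95% interval -0.34 to 0.04; limma adjusted p = 0.177). The signs of HAC1 and HAC12 both depend on scaling, since equal library totals gave log2 changes of 0.10 and 0.09.

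HAC1 and HAC12 kept a similar balance in every library. HAC1 supplied 69.3% and 67.4% of the pair's normalised counts in wild type and 68.4% and 68.6% in epl1a/b, so the libraries labelled epl1a/b lay between the wild type ones. It supplied 71.9% of the pair's counts in the dark and 68.5% in the light. No test was made of these shares, since an exact two-sided permutation test of 2 against 2 libraries cannot go below p = 0.333.

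HAC5 (AT3G12980, chr3:4146399-4154895, plus strand), which acts together with HAC1, had normalised counts of 677 and 726 in wild type and 689 and 761 in epl1a/b. The groups overlapped, and the log2 change was 0.05 ± 0.09 (SE; 95% interval -0.15 to 0.25; limma adjusted p = 0.686). With equal library totals HAC5 passed as higher, as described below.

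HAF2 (AT3G19040, chr3:6567021-6575613, minus strand) encodes a TAF1-type protein known for its part in light-regulated gene expression and greening. Its normalised counts were 10.6 and 12.4 in wild type and 29.5 and 38.7 in epl1a/b, from 10, 12, 34 and 44 reads. Both libraries labelled epl1a/b were above both wild type libraries. The log2 change was 1.48 ± 0.32 (SE; 95% interval 0.73 to 2.23; limma adjusted p = 0.00731), or 2.79-fold on value + 1. The recovered reads gave a log2 change of 1.57 in edgeR (adjusted p = 0.00743). Leaving out wild type replicate 1 ended the call (log2 change 1.37, limma adjusted p = 0.0599), as did leaving out epl1a/b replicate 2 (1.29, limma adjusted p = 0.0744).

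HAF1 (AT1G32750, chr1:11846247-11856765, minus strand), the major TAF1 gene, had normalised counts of 1411 and 1318 in wild type and 1396 and 1444 in epl1a/b. The groups overlapped, with a log2 change of 0.06 ± 0.07 (SE; 95% interval -0.11 to 0.23; limma adjusted p = 0.541). HAF2 supplied 0.744% and 0.935% of the counts of the pair in wild type and 2.07% and 2.61% in epl1a/b. HAF1 thus remained the source of nearly all TAF1 transcripts in both genotypes. Opposite-strand genes overlap 4.54% of the HAF1 exon bases, and the strand setting of the counting is not stated in the labels.

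HAG1 (AT3G54610, chr3:20213406-20217653, plus strand) is the plant GCN5, the catalytic subunit of the SAGA coactivator complex. It had normalised counts of 327 and 314 in wild type and 337 and 367 in epl1a/b. The epl1a/b libraries lay just above the wild type ones, and the log2 change of 0.13 ± 0.10 (SE; 95% interval -0.09 to 0.36) did not pass (limma adjusted p = 0.298). HAG2 (AT5G56740, chr5:22952767-22955739, minus strand), the type B enzyme that acetylates newly made histone H4, had 610 and 572 in wild type and 658 and 685 in epl1a/b. Its libraries did not overlap either, with a log2 change of 0.18 ± 0.08 (SE; 95% interval -0.004 to 0.37; limma adjusted p = 0.098).

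HAG3 (AT5G50320, chr5:20480626-20484945, minus strand) is the plant ELP3, the catalytic subunit of Elongator, which modifies transfer RNA as well as assisting transcription. Its normalised counts were 462 and 460 in wild type and 547 and 535 in epl1a/b. Both libraries labelled epl1a/b were higher, with a log2 change of 0.23 ± 0.08 (SE; 95% interval 0.04 to 0.42; limma adjusted p = 0.0487), or 1.17-fold. This call lies at the threshold and was lost with each library left out (limma adjusted p from 0.112 to 0.152) and with DESeq2 (adjusted p = 0.228). HAG3 is also uncertain because a pseudogene on the opposite strand overlaps 18.8% of its exon bases.

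All 3 GNAT genes and HAF2 lay above wild type in both libraries labelled epl1a/b, and HAC1, HAC4 and HAC12 lay below it in both. Among all genes tested, 38.1% lay above and 37.6% below in this sense, so such separation was common. The scale also bears on these directions. With equal library totals the median log2 change of all genes moved from 0.02 to 0.25, and HAC5, HAF1, HAG1 and HAG2 then passed as higher, with log2 changes of 0.29, 0.30, 0.37 and 0.42. Relative to the median of all genes, the changes were nearly the same under both scalings: -0.16 and -0.15 for HAC1, -0.65 and -0.64 for HAC4, 1.46 and 1.45 for HAF2, and 0.21 and 0.22 for HAG3.

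**Figure D2:**
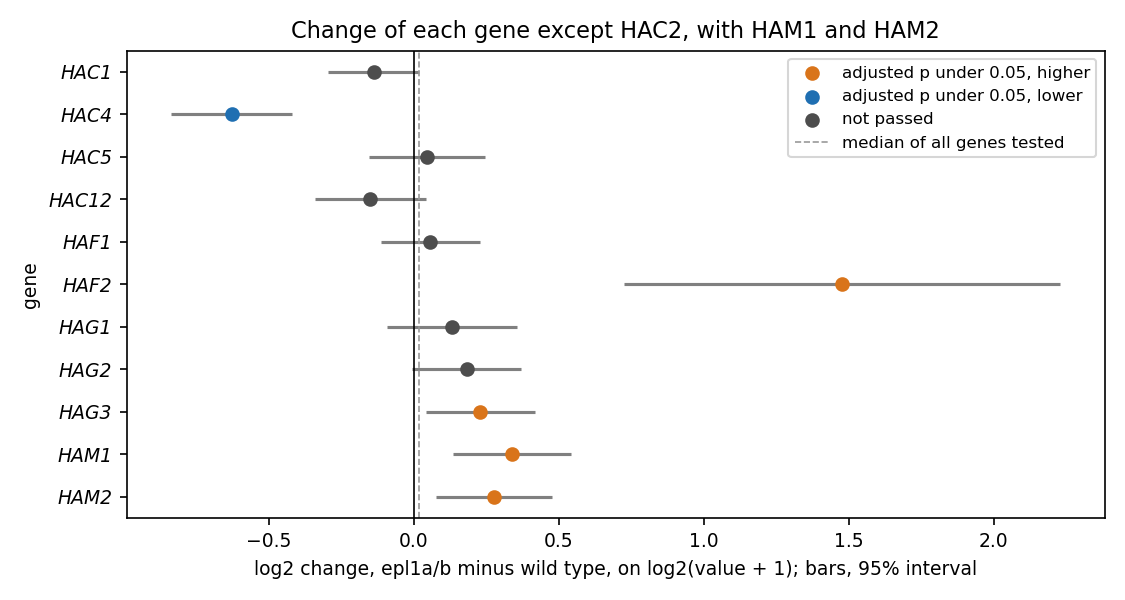
Log2 change between the libraries labelled epl1a/b and wild type (points) with its 95% interval (bars) for the 9 genes other than HAC2 and for HAM1 and HAM2, with orange and blue points marking an adjusted p under 0.05 and a dashed line at the median of all genes. HAF2 at 1.48 and HAC4 at -0.63 stand apart; HAC1 and HAC12 lie below 0 here and above 0 with equal library totals.

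The MYST genes, which encode the catalytic subunits of NuA4 itself, were set beside the family. HAM1 had normalised counts of 565 and 531 in wild type and 727 and 661 in epl1a/b, and the log2 difference was 0.34 ± 0.09 (SE; limma adjusted p = 0.0147). HAM2 had 348 and 347 against 423 and 420, and the log2 difference was 0.28 ± 0.09 (SE; limma adjusted p = 0.0322). Both were higher in both libraries labelled epl1a/b. The HAM1 call was lost without wild type replicate 1 or 2 or without epl1a/b replicate 1 (limma adjusted p from 0.0585 to 0.106). The HAM2 call was lost with any 1 library left out (limma adjusted p from 0.0892 to 0.11) and with DESeq2 (adjusted p = 0.187).

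Genes for proteins that work with the 10 enzymes were counted next. Of 45 such genes, 43 could be tested, 9 were higher and 10 were lower, beside 22.5% and 24.1% of all genes tested, so the count does not set them apart. Their median log2 change was 0.08, and with equal library totals 23 were higher and 5 lower. Of 12 SAGA genes tested, partners of HAG1, 2 rose, 4 fell and 6 did not pass, with a median of -0.21, beside 46.7% of all genes called in either direction. The rises were in TRA1A (log2 change 0.48, limma adjusted p = 0.00129) and TRA1B (0.35, limma adjusted p = 0.0054), which encode the large activator-binding subunit that SAGA shares with NuA4. The largest falls were in SGF29A (-0.80, limma adjusted p = 0.00215), a histone-reading subunit gene, and TAF12B (-0.48, limma adjusted p = 0.00225), which TFIID shares. The TRA1B call was lost without epl1a/b replicate 2 (limma adjusted p = 0.0587).

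Of the Elongator subunit genes that join HAG3, ELP4 (log2 change 0.43, limma adjusted p = 0.0582) and ELP5 (0.32, limma adjusted p = 0.0608) did not pass. Among genes for handling of new histones, which act beside HAG2, 3 of 6 rose and 2 fell, with a median of 0.26. Over all genes tested, 46.7% were called in either direction, and 6 genes are too few to set against that share. NASP, a histone chaperone gene, rose (log2 change 0.52, limma adjusted p = 0.00126), and so did the chaperone gene ASF1B (0.37, limma adjusted p = 0.0485), a call lost with each library left out. MSI2 and MSI3, genes for WD-repeat histone-binding proteins, fell (-1.02, limma adjusted p = 0.000499, and -0.79, limma adjusted p = 0.0013).

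Of 19 TFIID genes tested, partners of HAF1 and HAF2, 3 were higher and 4 lower, with a median of 0.05, beside the same 46.7% called over all genes. TAF14 rose most (log2 change 1.32, limma adjusted p = 0.00458), although without wild type replicate 1 or epl1a/b replicate 2 it did not pass (limma adjusted p = 0.0526 and 0.0673). TBP1, one of the TATA-binding protein genes, had 469 and 451 in wild type and 860 and 808 in epl1a/b, or 0.86 ± 0.08 higher in log2 (SE; limma adjusted p = 0.000124). TAF12B, counted above, and TAF7 fell most, TAF7 with a log2 change of -0.48 (limma adjusted p = 0.0226). The TAF7 call was lost with equal library totals, with DESeq2 and with either wild type library or epl1a/b replicate 2 left out. TAF11B had 0 reads in every genotype library.

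Of the HAC1 partners, NPR1, the salicylic acid receptor and coactivator gene, fell from 436 and 475 to 280 and 273, or -0.72 ± 0.09 in log2 (SE; limma adjusted p = 0.000678). MED25, a Mediator subunit gene, had 743 and 830 in wild type and 890 and 945 in epl1a/b, and its log2 change of 0.22 ± 0.09 (SE) did not pass (limma adjusted p = 0.0638). MYC2 is listed at 0 in all 6 libraries, and 98.5% of its exon bases are overlapped by another gene, so its level cannot be read from these tables.

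The surroundings of each gene on the chromosome were examined, with the 2 nearest listed genes on each side. Of these 40 neighbours, 32 could be tested, 6 were higher, 9 were lower and 17 did not pass, a share called close to the 46.7% of all genes. Of the 4 neighbours of HAC2, 2 had at most 2 reads in any genotype library, too few to compare. AT1G08913, the long non-coding RNA gene 63 bases upstream on the same strand, had 0 and 0 reads in wild type and 1 and 1 in epl1a/b, and AT1G67238, a non-coding RNA gene, had 2 and 0 against 1 and 2. LINC1, a nuclear lamina gene that lies 652 bases downstream, had normalised counts of 2598 and 2398 in wild type and 2170 and 2359 in epl1a/b (log2 change -0.14, limma adjusted p = 0.179). AT1G67210, further upstream, had 112 and 94.5 in wild type and 77.3 and 59.0 in epl1a/b. Its log2 change of -0.60 passed (limma adjusted p = 0.0439), a call lost with each library left out.

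HAC1 and HAC12 sit beside the pair of genes that the epl1a/b line is named for. EPL1B lies 2295 bases from HAC1 with 1 gene between them, AT1G79010, and EPL1A lies 4230 bases from HAC12 with 2 genes between them. Within each block HAC and EPL1 genes share a strand. Next to HAC1, AT1G79010, annotated as an iron-sulfur protein of the ferredoxin type, fell from 1867 and 1899 to 1034 and 1099 (log2 change -0.82, limma adjusted p = 8.1e-05). On the other side of HAC1, 94 bases away, AT1G78995 fell from 205 and 217 to 15.9 and 11.2 (log2 change -3.88, limma adjusted p = 1.32e-05). HAC1 thus did not pass the test while the genes directly on both sides of it fell and EPL1B was 13.2-fold higher. AT1G16705, 41 bases upstream of HAC12 and annotated by RefSeq as related to CBP acetyltransferases, had normalised counts of only 9.48 and 7.28 in wild type and 10.7 and 4.18 in epl1a/b. Next to HAC12, AT1G16700 (log2 change 0.05), AT1G16705 (-0.26) and HCF173 (-0.24, limma adjusted p = 0.0508) did not pass.

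**Figure D3:**
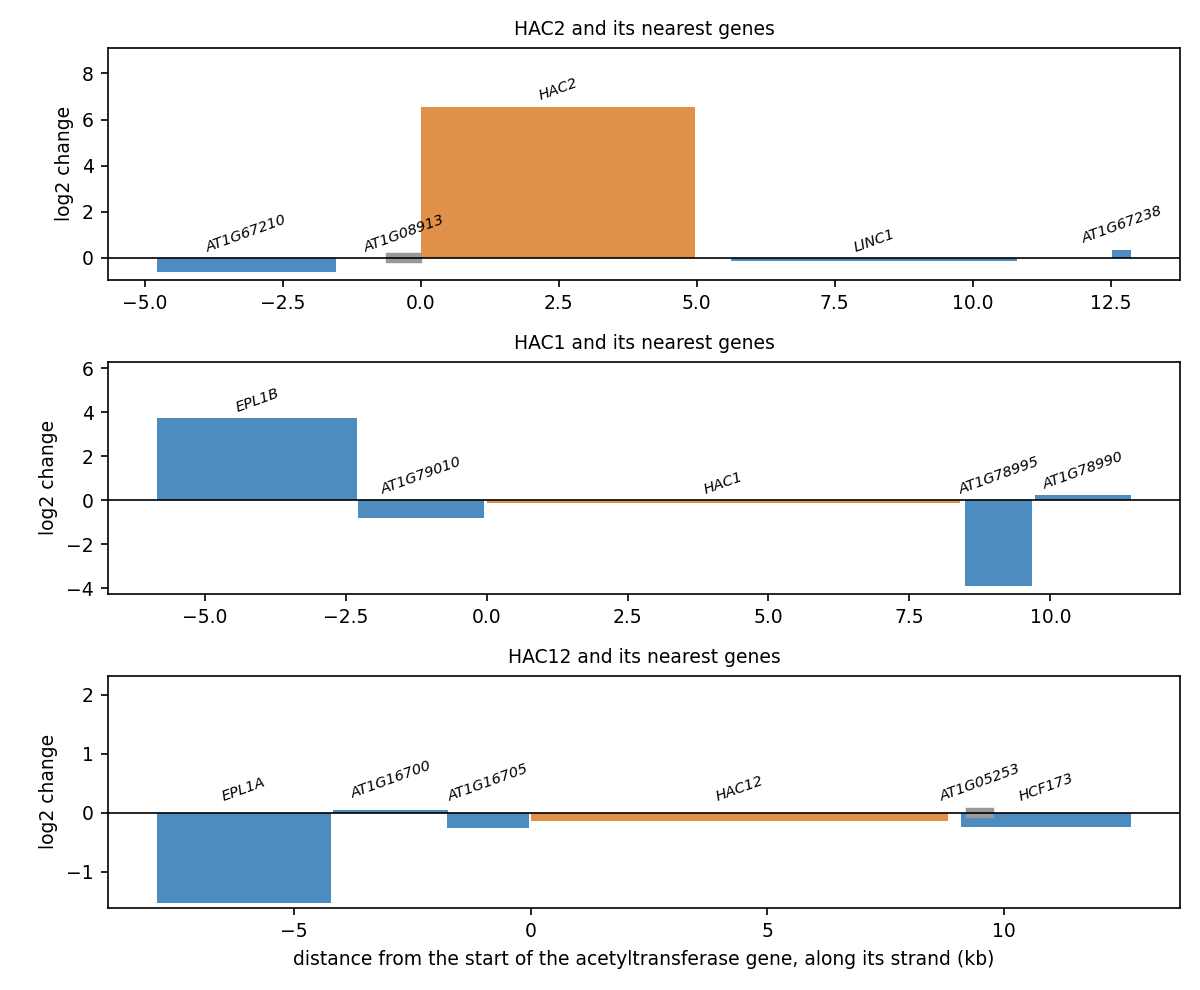
Log2 change between the libraries labelled epl1a/b and wild type of HAC2, HAC1 and HAC12 (orange) and of nearby genes (blue), drawn along the distance in kb from the start of the acetyltransferase gene, with the bar width equal to the gene length and grey marks for genes that were not tested. HAC2 stands far above LINC1 and AT1G67210, its height depending on the added value of 1, whereas HAC1 lies between AT1G78995 at -3.88 and AT1G79010 at -0.82.

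Among neighbours of the other genes, the largest called changes were falls of AT5G50335 near HAG3 (log2 change -2.04, limma adjusted p = 5e-04) and AT1G55960 beside HAC4 (-1.79, limma adjusted p = 3.18e-06). AT1G55960 lies 2241 bases from HAC4, on the same strand, and on the opposite side AT1G55980 (-0.21) did not pass. Around HAG1, HRGP1 fell (-1.19, limma adjusted p = 0.0268; lost without wild type replicate 1), BZIP25 fell (-0.55, limma adjusted p = 0.00206) and DJ1F rose (0.53, limma adjusted p = 0.00148). AT3G19030 near HAF2 rose (0.88, limma adjusted p = 6.67e-05), and so did AT1G32740, which overlaps HAF1 by 101 bases (0.70, limma adjusted p = 0.00359). Near HAG2, c-NAD-MDH3 (-0.23), AT5G56730 (-0.09) and NDL1 (-0.25) did not pass. Near HAC5, AT3G12970 rose (0.78, limma adjusted p = 0.0059), RRP45a rose (0.31, limma adjusted p = 0.0453) and AT3G13000 fell (-0.35, limma adjusted p = 0.0123), each lost with at least 2 of the 4 libraries left out in turn. AT5G50330, 188 bases from HAG3, fell (-0.74, limma adjusted p = 0.0405), a call lost in edgeR on the recovered reads (adjusted p = 0.0502) and with 3 of the 4 libraries left out in turn.

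**Figure D4:**
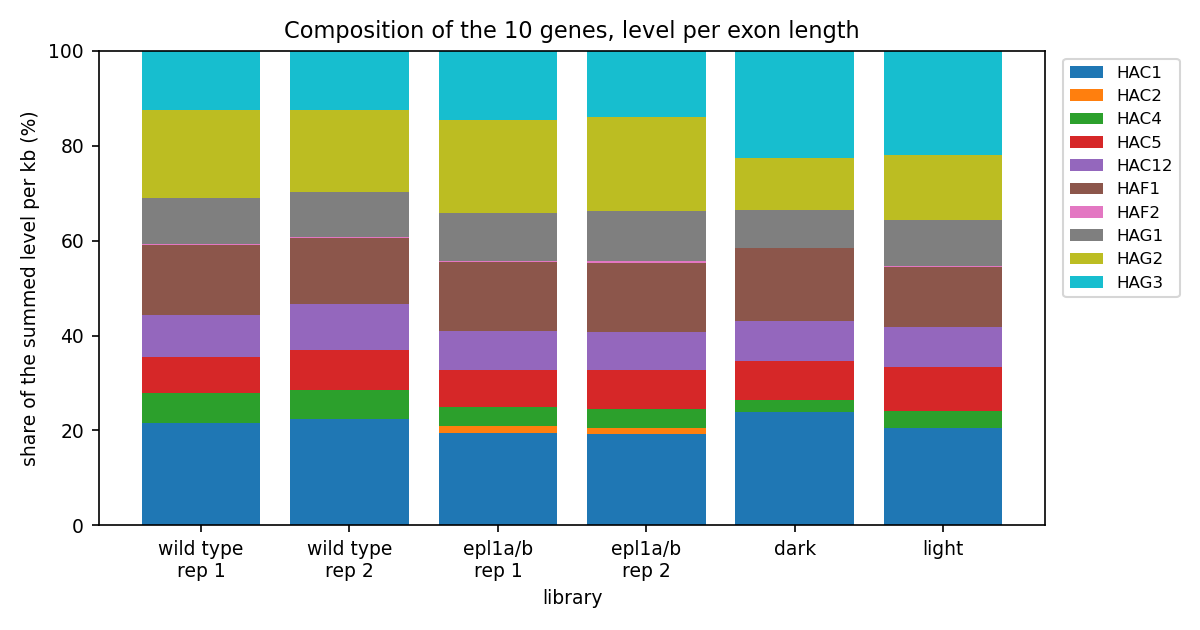
Share of the family's summed level per kb of exon taken by each of the 10 genes in each of the 6 libraries, in percent. HAC1 takes 19.2% to 23.8%. HAG3 takes 12.5% to 14.6% in the genotype libraries and 21.9% to 22.5% in the dark and light libraries. HAG2 takes 17.3% to 19.8% in the genotype libraries, and 11.1% in the dark and 13.7% in the light. HAC4 takes 3.91% to 6.23% in the genotype libraries, and 2.71% in the dark and 3.58% in the light. Each share is taken within its own library, and the cause of these differences was not tested.

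Dark and light were compared in Col-0 with 1 library each, so there is no replicate check and no test, and intervals cover counting error only. With TMM scaling the family differed little: HAC1 and HAF1 were slightly higher in the dark library, HAC4, HAC5, HAG1 and HAG2 were lower, and HAC12 and HAG3 had ratios whose intervals hold 1. Values are CPM, which are counts divided by the library size after TMM scaling. Of the 9 genes with at least 10 counts over both libraries, 0 were at least 2-fold higher and 1 (HAF2) at least 2-fold lower, against 15.7% and 19.4% of the 21128 genes with that many counts. The median log2 ratio was -0.24 for these 9 and -0.02 for all genes. The labels do not state the length of the dark treatment. Seed and embryo markers summed to 7119 CPM in the dark and 21.9 in the light, with 0 of 9 at 0 counts in either, and leaf markers to 12267 and 54759. Root markers summed to 5507 and 3230 CPM, and dividing-cell markers to 55.1 and 82.3. Stage or material and the light condition cannot be told apart here.

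Among the CBP-type genes, HAC1 had 2060 counts in the dark and 2333 in the light, 101 and 90.7 CPM, a ratio of 1.12 (exact 95% interval 1.05 to 1.19). HAC4 had 171 and 297 counts, 8.41 and 11.5 CPM, a ratio of 0.728 (0.6 to 0.882). HAC5 had 639 and 958 counts, a ratio of 0.844 (0.762 to 0.934). HAC4 was thus the lowest of the family in the dark among the genes with more than 100 counts. HAC12 had 807 and 1072 counts, with a ratio of 0.952 (0.868 to 1.04) that holds 1.

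The TAF1 pair split again by abundance. HAF1 had 1322 counts in the dark and 1435 in the light, 65.0 and 55.8 CPM, a ratio of 1.17 (1.08 to 1.26). HAF2 had 4 and 15 counts, a ratio of 0.337 whose interval, 0.0815 to 1.06, holds 1. HAF2 supplied 0.302% of the pair's counts in the dark and 1.03% in the light.

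Of the GNAT genes, HAG1 had 243 and 387 counts, a ratio of 0.794 (0.674 to 0.935), and HAG2 had 333 and 543, a ratio of 0.776 (0.675 to 0.891). Both intervals lie below 1 with TMM scaling. HAG3 had 755 and 965 counts, a ratio of 0.990 (0.899 to 1.09). The summed level of the 10 genes was 68.5 CPM per kb in the dark and 71.2 in the light. These directions depend on the TMM scaling. On plain library totals the log2 ratios of HAC12 and HAG3 turned from -0.07 and -0.015 to 0.16 and 0.21. Those of HAC5, HAG1 and HAG2 moved from -0.24, -0.33 and -0.36 to -0.02, -0.105 and -0.14, and that of HAC4 from -0.45 to -0.23.

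On this scale per kb of exon, HAC1 led in the dark with 16.3 CPM per kb, followed by HAG3 with 15.4 and HAF1 with 10.5. In the light HAG3 led with 15.6, followed by HAC1 with 14.6 and HAG2 with 9.77. HAG2 and HAF1 thus changed places between the libraries, HAG2 having 7.58 in the dark and HAF1 9.01 in the light. With TMM scaling the MYST genes went apart, HAM1 with a ratio of 0.848 (0.758 to 0.948) and HAM2 with 1.36 (1.18 to 1.57). Plain library totals raise every ratio, as for the family above, so the direction of HAM1 is not settled.

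**Figure D5:**
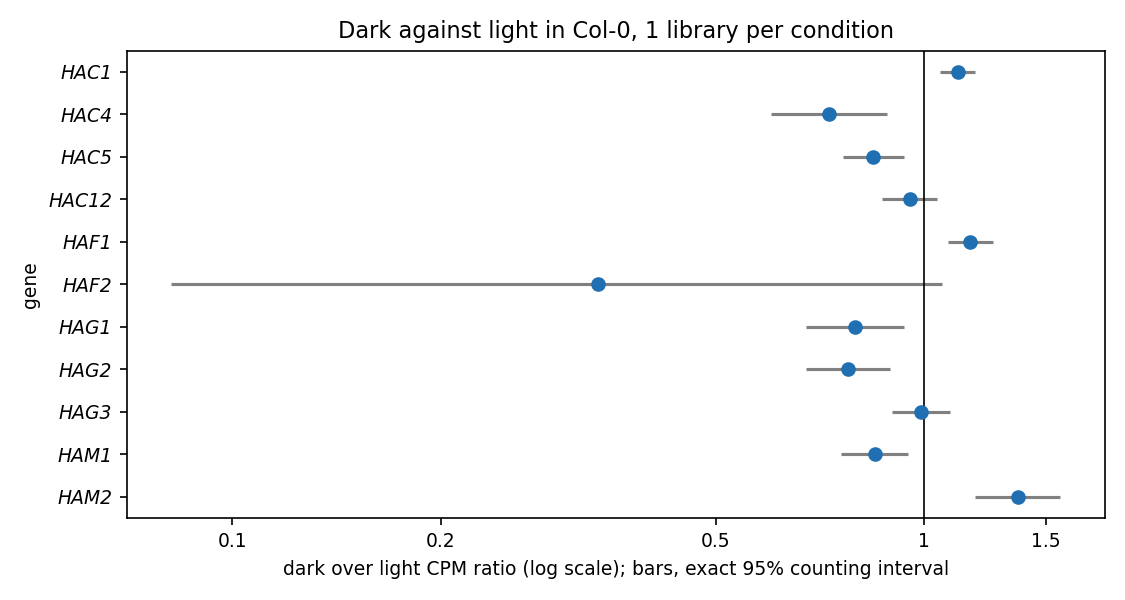
Ratio of CPM in the dark library over the light library (points, log scale) with exact 95% counting intervals (bars) for the 9 genes other than HAC2 and for HAM1 and HAM2, 1 library per condition. HAC1 and HAF1 lie above 1 at 1.12 and 1.17, HAC4, HAC5, HAG1 and HAG2 lie below 1, and the wide HAF2 interval rests on 4 and 15 counts; on plain library totals HAC12 and HAG3 lie above 1 and HAC5 close to 1.

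Partner genes were compared in the same way, with TMM scaling. Plain library totals would raise these ratios too, as they did for the family, so ratios close to 1 have no settled direction. Among the Elongator genes with a mean of at least 5 CPM, ELP4 was highest with 0.878 (0.721 to 1.07) and ELP5 lowest with 0.635 (0.507 to 0.793). Below that limit ELP6 was lower still, with 63 counts in the dark and 152 in the light, a ratio of 0.524 (0.385 to 0.708). All 6 histone-handling genes had ratios below 1, as did 50.6% of all genes. Their median log2 ratio was -0.54, and they ranged from MSI3 with 0.848 (0.736 to 0.976) down to ASF1B with 0.531 (0.429 to 0.653). SAGA genes were spread around 1 (median 0.03), from TRA1B with 0.712 (0.652 to 0.777) to SGF11, a gene of the deubiquitination module, with 2.63 (2.19 to 3.16). Among TFIID genes with a mean of at least 5 CPM, TAF7 was lowest with 0.630 (0.505 to 0.783) and TAF13 highest with 1.79 (1.46 to 2.19). The median log2 ratio of all 19 TFIID genes with enough counts was 0.16, and below that CPM limit TAF4B had 8 counts in the dark and 28 in the light, a ratio of 0.361 (0.142 to 0.814). MED25 had a ratio of 1.44 (1.3 to 1.59) and NPR1 one of 0.964 (0.855 to 1.09).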

How the data were processed

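The genotype table holds a signal of normalised read counts per gene, per the file headers, and the dark and light table holds raw counts, as deposited by the authors. The submitters' processing notes name HISAT2, featureCounts, edgeR and the TAIR10 build, with no settings. The 10 genes and all gene lists were chosen with earlier results of these data known. The normalised values, made by the library-size equalisation of edgeR, could be inverted to whole reads for 32548 of 32548 genes (100%, tolerance 1e-06). Levels were tested with limma 3.58.1 (trend, robust) on log2(value + 1) of the deposited values, for the 23658 genes that reached a value of 1 in 2 or more libraries, with Benjamini-Hochberg adjustment over all of them and a threshold of 0.05. That scale understates the change of low genes. edgeR 4.0.16 (quasi-likelihood, TMM) on the recovered reads called 5290 genes higher and 5497 lower of 20649, and DESeq2 1.42.0 was another alternative. Replicates differed beyond sampling noise (chi-square per degree of freedom 6.64 and 6.92). Dark and light counts were scaled with TMM, with a prior count of 2 for log2 ratios, and exact Clopper-Pearson 95% intervals were computed from the counts. Every column was mapped, and the tests were tried on simulated data. Named genes were the 10 members, EPL1A, EPL1B, HAM1 and HAM2, the 2 largest called rises and falls of each partner list, the highest and lowest dark ratio of each at a mean of at least 5 CPM, the 2 nearest genes on each side, and the 3 genes nearest to HAC2 in level. Coordinates and sequences are from RefSeq TAIR10.1, in which gene overlaps were also computed. Alternatives covered the pseudocount, the filter, scaling to equal totals, other tests, each library left out and a replicate block. Of the 40 neighbours, those called, those of HAC2 and some others are named, and the rest are given only in the counts. The results of 1 partner gene that the naming rule selects are not reported here.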

Additional observations from a re-analysis of the deposited data

How the results depend on the processing

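The fall of HAC4 passed under every alternative run, with a log2 change between -0.65 and -0.61 over the fits with a library left out. Of the genes other than HAC2, 2 were higher in the main comparison, 6 with equal library totals, 1 with a pseudocount of 5, with no filter, with DESeq2, and 0 to 1 with a library left out. Equal library totals gave 8749 genes higher and 3655 lower, 70.5% higher against 48.3%, and 23 partner genes higher and 5 lower. With a library left out, 2660 (epl1a/b replicate 2), 2905 (epl1a/b replicate 1), 3288 (wild type replicate 1) and 3689 (wild type replicate 2) genes were higher, 3836 to 4147 were lower, and 4 to 6 partner genes were higher and 6 to 7 lower, from fewer samples. HAC1 and HAC12 changed sign with equal totals (log2 changes 0.101 and 0.091). HAC5, between -0.025 and 0.118 with a library left out, was below 0 when wild type replicate 1 (-0.004) or epl1a/b replicate 2 was missing. The cause was not tested. With the replicate block, 4578 genes were higher and 5099 lower and 1 gene of the family besides HAC2 was higher, the HAG3 call being lost (adjusted p = 0.0793). Same-numbered replicates did not deviate together (correlation -0.141 over 23658 genes, and -0.228 over the 20397 with a mean of at least 10). This correlation cannot show whether the libraries were paired when grown or prepared. The crossed replicate block, chosen after seeing the data, gave 5353 higher and 5585 lower genes and 1 higher gene of the family besides HAC2. Depth limits HAF2 and HAC2, which rest on 10 to 108 reads where detected in the genotype libraries.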
